A study of Homo sapiens with 12 samples.

Results

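The genes described are 10 components of transforming growth factor beta (TGF-beta) and activin signalling: the ligands TGFB1, TGFB2, TGFB3 and INHBA, the receptors TGFBR1, TGFBR2 and TGFBR3, and the intracellular genes SMAD3, SMAD7 and SKIL. They were read from every probe set annotated to 1 of these symbols alone, which gave 21 probe sets for the 10 genes, out of 11963 genes measured. A gene with several probe sets was read from the brightest one, by its mean over the 12 arrays. Expression was measured on 12 arrays in 4 groups of 3. HCC827 is an established human lung adenocarcinoma line with an activating EGFR mutation, and the parental group is this line as such. ERC4 is a single derived line with resistance to the EGFR kinase inhibitor erlotinib, per the labels. NT cells are HCC827 that received a non-target shRNA by lentivirus, and Esh9-1 cells received an EGFR shRNA in the same way, with a single shRNA named. The labels give no drug exposure at harvest. One of them calls all 12 samples resistant, so that groups were taken from titles and descriptions. All cells grew with 5% FBS, and NT and Esh9-1 cells grew with puromycin at 5 ug/ml as well.

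TGF-beta ligands are secreted in a latent form, and once released they bind TGFBR2, which recruits and phosphorylates TGFBR1. Activin A, a dimer of the INHBA product, signals in the same manner through activin receptors. Both routes phosphorylate SMAD2 and SMAD3, which enter the nucleus with SMAD4, while SMAD7 and SKIL are induced by the pathway and restrain it. In carcinoma cells the pathway is known for cell cycle arrest and for epithelial to mesenchymal transition.

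The stretches upstream of 4 genes are shown here: in the probe sets that stood for them, TGFB2, SMAD7 and SMAD3 were called higher in both comparisons, and TGFB1 was called in opposite directions. Each holds the 250 bases before the transcription start listed first for the gene in RefSeq (GRCh38.p14), written 5′ to 3′ along the gene. They lie at chr1:218345086-218345335, plus strand (TGFB2), chr18:48950966-48951215, minus strand (SMAD7), chr15:67065352-67065601, plus strand (SMAD3) and chr19:41353923-41354172, minus strand (TGFB1). Capitals mark CAGAC on either strand, the core of the DNA element that SMAD3 and SMAD4 bind.
TGFB2: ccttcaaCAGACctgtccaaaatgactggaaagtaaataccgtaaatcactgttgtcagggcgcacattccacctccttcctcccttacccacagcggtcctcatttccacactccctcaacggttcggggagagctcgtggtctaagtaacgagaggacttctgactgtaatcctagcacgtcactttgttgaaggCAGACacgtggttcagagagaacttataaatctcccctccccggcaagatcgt
SMAD7: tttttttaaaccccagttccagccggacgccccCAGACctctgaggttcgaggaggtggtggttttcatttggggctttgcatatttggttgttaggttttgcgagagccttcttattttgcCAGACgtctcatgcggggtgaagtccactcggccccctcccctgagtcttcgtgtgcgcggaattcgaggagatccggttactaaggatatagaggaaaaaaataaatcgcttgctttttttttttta
SMAD3: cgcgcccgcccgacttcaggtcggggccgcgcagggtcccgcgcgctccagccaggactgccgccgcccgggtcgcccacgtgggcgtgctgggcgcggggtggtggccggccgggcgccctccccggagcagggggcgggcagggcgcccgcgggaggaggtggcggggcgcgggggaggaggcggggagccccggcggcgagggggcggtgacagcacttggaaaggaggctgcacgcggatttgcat
TGFB1: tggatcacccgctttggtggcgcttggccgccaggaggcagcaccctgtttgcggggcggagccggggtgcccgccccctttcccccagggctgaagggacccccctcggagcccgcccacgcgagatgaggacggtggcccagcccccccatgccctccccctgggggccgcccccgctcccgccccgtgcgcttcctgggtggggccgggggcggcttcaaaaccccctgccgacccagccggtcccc

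CAGAC starts 243 and 53 bases before the start of TGFB2 and 217 and 128 bases before that of SMAD7, and the SMAD3 and TGFB1 stretches hold none. All 10 genes had a sequence in the table, and 5 of the 10 stretches held CAGAC, against 37.8% of 27305 upstream stretches of the same length. The full palindrome GTCTAGAC (in 0.176% of stretches) and the AP-1 motif TGACTCA (in 4.16%) were in none of the 10. Only the start listed first was searched, while SMAD7 has 3 listed starts, SMAD3 5, TGFBR1 8, and TGFB3 and TGFBR2 2 each. A motif elsewhere in these promoters would be missed. These matches describe the letters in the window and were not tested as binding sites.

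Every level below is on the scale log2(intensity + 1). The parental and ERC4 arrays had medians of 5.67 to 5.75 and the NT and Esh9-1 arrays 7.15 to 7.17, as 2 separately normalized sets would, so levels are compared only within a set. Replicate arrays correlated at 0.9922 or above across probe sets, and nothing in the labels says that they came from separate cultures, so that p-values measure the spread between these arrays. EGFR (201983_s_at), the target of the shRNA, fell by 1.30 ± 0.07 (limma SE) in Esh9-1 against NT (limma adjusted p = 9.2e-07), and 3 of its other 5 probe sets were lower still, at -2.16 to -2.72, while the dim 211550_at gave 0.06 and 211551_at, near the array medians, was called higher at 0.18 ± 0.07 (limma adjusted p = 0.045). In the probe sets that stood for them, the lung lineage factor NKX2-1 and the keratins KRT7, KRT8 and KRT18 lay above the array medians in all 4 groups, while CDH1 and MUC1 lay under them in Esh9-1 cells. Of 10 lung epithelial markers, 8 were called lower and 1 higher in ERC4, and all 10 were called lower in Esh9-1. Over all genes, 24.8% were called lower and 26% higher in ERC4, and 26.1% lower in Esh9-1. The epithelial adhesion genes CDH1 and EPCAM fell 77.6-fold and 30.3-fold in Esh9-1 and 6.73-fold and 6.22-fold in ERC4, and MUC1, a mucin gene, fell 9.69-fold and 6.86-fold. Hybridisation controls, added to the labelled sample, averaged 11.04 ± 0.15 (SD, n = 3) on parental against 9.48 ± 0.07 on ERC4 arrays, and 11.37 ± 0.10 on NT against 11.92 ± 0.06 on Esh9-1 arrays. The 3′ minus 5′ signal of the ACTB control probe sets was 1.07 ± 0.15 (SD, n = 3) in Esh9-1 and 0.20 ± 0.03 in NT, and 0.19 ± 0.04 in ERC4 against 0.22 ± 0.05 in parental arrays. That of the GAPDH controls was 0.30 ± 0.08 in Esh9-1 and -0.05 ± 0.02 in NT. It was -0.08 ± 0.03 in ERC4 against 0.06 ± 0.03 in parental arrays. These shifts ran with the groups compared, and their part in the results was not tested.

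In erlotinib-resistant ERC4 cells against parental HCC827, TGFB2, SMAD7 and SMAD3 rose, TGFB1 and TGFB3 fell, and the receptors moved little. TGFB2 rose 2.57-fold, SMAD7 2.08-fold and SMAD3 1.67-fold, while TGFB1 fell 1.54-fold. Of the 10 genes, 4 were called higher and 3 lower at a limma adjusted p under 0.05, and 3 were not called. Over all genes, each read from its 1 probe set, 50.9% were called, 26% higher and 24.8% lower, so that the number of calls among the 10 stands near the background. Calls of 2-fold or more in the higher direction made up 4.51% of all genes and 2 of the 10, TGFB2 and SMAD7. By probe set, 8 of 21 were called higher and 6 lower, where 48.5% of all probe sets were called in either direction.

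**Figure D1:**
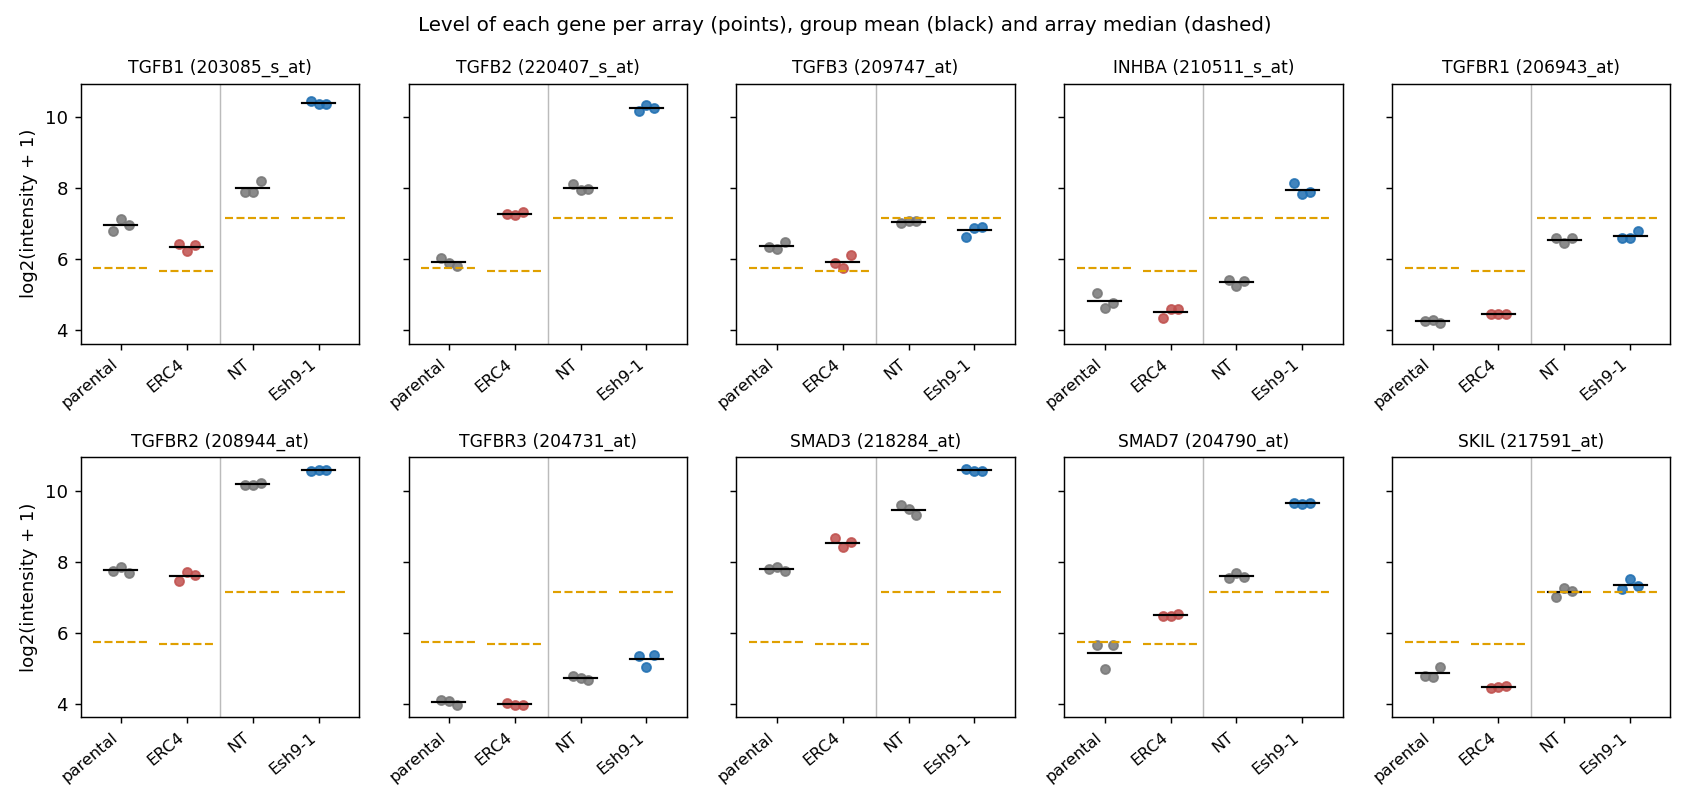
Level of each of the 10 genes in its brightest probe set, log2(intensity + 1), on each of the 12 arrays in the parental, ERC4, NT and Esh9-1 groups (points, n = 3 each), with the group mean as a black line and the array medians as dashed lines; the grey line divides the 2 sets of arrays. TGFB2, SMAD7 and SMAD3 are higher in ERC4 and in Esh9-1 than in their controls with no overlap, while TGFB1 is lower in ERC4 and higher in Esh9-1.

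Among the ligands, TGFB2 (220407_s_at) read 6.03, 5.91 and 5.81 on the parental arrays and 7.27, 7.24 and 7.33 on the ERC4 arrays. All 3 ERC4 arrays lay above all parental arrays, by 1.36 ± 0.08 (SE) on average (limma adjusted p = 2e-06). The probe sets 209908_s_at and 209909_s_at gave 0.98 ± 0.12 and 1.36 ± 0.09, and both lay under the array medians in both groups. The fourth TGFB2 probe set, 220406_at, ran the other way at -0.47 ± 0.17 (limma adjusted p = 0.046), lay under the array medians in both groups, had overlapping arrays, and kept its call in 2 of the 6 fits that left out an array.

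TGFB1 (203085_s_at), the ligand most widely made across tissues, read 6.79, 7.13 and 6.98 in parental and 6.42, 6.23 and 6.40 in ERC4 cells. The groups did not overlap, and TGFB1 fell by 0.62 ± 0.10 (limma adjusted p = 0.00091). Its other probe set, 203084_at, fell by 0.68 ± 0.08 (limma adjusted p = 0.00011), to 0.56 under the array medians in ERC4. TGFB3 (209747_at) fell by 0.45 ± 0.10 (limma adjusted p = 0.0055), from 6.37 ± 0.10 (SD, n = 3) to 5.92 ± 0.17. INHBA (210511_s_at), which encodes the activin beta A subunit, lay under the array medians in both groups and was not called, at -0.30 ± 0.12 (limma adjusted p = 0.065).

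Among the receptors, TGFBR2 (208944_at), which binds the ligand, read 7.77 ± 0.07 (SD, n = 3) in parental and 7.60 ± 0.14 in ERC4 cells and was not called (-0.17 ± 0.09, limma adjusted p = 0.16). Its other probe set, 207334_s_at, was called lower at -0.28 ± 0.08 (limma adjusted p = 0.017). TGFBR1 (206943_at), the signalling receptor kinase, was called higher by 0.20 ± 0.07 (limma adjusted p = 0.042) at levels of 4.26 and 4.46, far under the array medians, and the call was lost in each of the 6 fits without an array, with an adjusted p of up to 0.11. TGFBR3 (204731_at), the co-receptor betaglycan, gave -0.07 ± 0.08, also under the array medians.

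Among the intracellular genes, SMAD7 (204790_at), the inhibitory SMAD, read 5.67, 5.00 and 5.65 in parental and 6.47, 6.48 and 6.55 in ERC4 cells. Parental replicate 2 was the lowest array, and SMAD7 rose by 1.06 ± 0.16 (limma adjusted p = 0.00052) with all 3 arrays and by 0.84 without that one. The mean parental level of SMAD7 lay 0.3 under the array medians. SMAD3 (218284_at), the receptor-activated SMAD that binds DNA, read 7.80, 7.87 and 7.76 in parental and 8.67, 8.43 and 8.56 in ERC4 cells, a rise of 0.74 ± 0.09 (limma adjusted p = 1e-04). Of its 4 probe sets, 3 were called higher and none lower, at 0.35 to 0.96, and 205398_s_at gave 0.22 ± 0.09 (limma adjusted p = 0.063). SKIL (217591_at), a transcriptional repressor that binds SMADs, was called lower at -0.38 ± 0.09 (limma adjusted p = 0.0079), from 4.86 to 4.48. Both levels lie under the array medians, where 28.5% of all genes were called lower and 9.46% higher.

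After EGFR depletion in Esh9-1 cells, the ligands INHBA, TGFB1 and TGFB2 rose most, by 6.12-fold, 5.33-fold and 4.74-fold, and SMAD7 rose 4.17-fold against NT. SMAD3 was 2.16-fold higher in its brightest probe set, with its 4 probe sets split between higher and lower. The receptor genes changed by less than 2-fold in the probe sets that stood for them. Of the 10 genes, 7 were called higher, 1 lower and 2 not called, where 52.3% of all genes were called, 26.2% higher and 26.1% lower. By probe set, 12 of 21 were called higher and 4 lower, where 50.3% of all probe sets were called. Rises of 2-fold or more were seen in 5 of the 10 genes and in 4.89% of all genes. The median log2 fold change of the 10 was 0.82, against -0.02 over all genes, while in ERC4 it was -0.12 against -0.04. The 10 genes were chosen with earlier results of these data known, so these counts and medians describe them and test nothing. In either comparison, 8 of the 10 genes had groups with no overlap, against 60.5% of all genes in ERC4 minus parental and 61.3% in Esh9-1 minus NT. Beside these results stand the ACTB 3′ excess of the Esh9-1 arrays given above and disagreement between the probe sets of TGFB1, TGFB2, INHBA, TGFBR2 and SMAD3.

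INHBA (210511_s_at) read 5.42, 5.25 and 5.38 in NT and 8.14, 7.84 and 7.91 in Esh9-1 cells. The groups lay far apart, with a rise of 2.61 ± 0.09 (limma adjusted p = 3.7e-08), and the NT level was 1.81 under the array medians, so that the size of the fold rests on a dim signal. The second INHBA probe set, 204926_at, was dim in both groups and rose by 0.28 ± 0.10 (limma adjusted p = 0.043) with overlapping arrays.

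TGFB1 (203085_s_at) read 7.89, 7.90 and 8.21 in NT and 10.47, 10.39 and 10.39 in Esh9-1 cells, a rise of 2.41 ± 0.09 (limma adjusted p = 6.4e-08). The probe set 203084_at showed no such rise, with overlapping arrays at 6.04 ± 0.25 (SD, n = 3) in NT and 6.12 ± 0.11 in Esh9-1, both under the array medians (0.08 ± 0.12, limma adjusted p = 0.6). In ERC4 the same pair of probe sets had given like values. TGFB2 (220407_s_at) read 8.11, 7.96 and 7.97 in NT and 10.17, 10.34 and 10.26 in Esh9-1 cells, a rise of 2.24 ± 0.07 (limma adjusted p = 2.6e-08). The probe sets 209908_s_at and 209909_s_at gave 2.04 ± 0.16 and 3.66 ± 0.15, from NT levels 1.99 and 1.26 under the array medians. The dim 220406_at gave 0.10 ± 0.11 and was not called. TGFB3 was called lower at -0.24 ± 0.08 (limma adjusted p = 0.036), under the array medians, and kept the call in 2 of the 6 fits without an array. Of genes with a mean level under the array median, 19.3% were called lower and 13% higher.

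TGFBR2 gave opposite calls from its probe sets in Esh9-1. The brighter, 208944_at, read 10.18, 10.17 and 10.24 in NT and 10.57, 10.60 and 10.60 in Esh9-1 cells, higher by 0.40 ± 0.06 (limma adjusted p = 0.00038). The dimmer, 207334_s_at, read 7.87, 7.83 and 7.54 in NT and 6.62, 6.58 and 6.73 in Esh9-1 cells, lower by 2.15-fold (-1.10 ± 0.09, limma adjusted p = 1.1e-05). Neither pair of groups overlapped, so no direction can be given for the gene as a whole. TGFBR1 was not called (0.10 ± 0.08, limma adjusted p = 0.3), and TGFBR3 was called higher at 0.52 ± 0.09 (limma adjusted p = 0.0012) while lying 2.42 under the array medians in NT and 1.91 under them in Esh9-1 cells.

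SMAD7 read 7.55, 7.68 and 7.59 in NT and 9.68, 9.63 and 9.68 in Esh9-1 cells, a rise of 2.06 ± 0.06 (limma adjusted p = 1.7e-08), with the smallest adjusted p of the 10 genes. SMAD3 (218284_at) read 9.62, 9.49 and 9.33 in NT and 10.62, 10.58 and 10.57 in Esh9-1 cells, a rise of 1.11 ± 0.08 (limma adjusted p = 3.7e-06). Its other probe sets were split: 205398_s_at was called higher at 0.64 ± 0.08, while 205396_at and 205397_x_at were called lower at -0.49 ± 0.16 and -0.27 ± 0.07, so that, as for TGFBR2, no direction can be given for the gene as a whole. SKIL (217591_at) was not called, at 0.20 ± 0.09 (limma adjusted p = 0.11), and its dim probe set 206675_s_at was called higher at 0.56 ± 0.14.

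**Figure D2:**
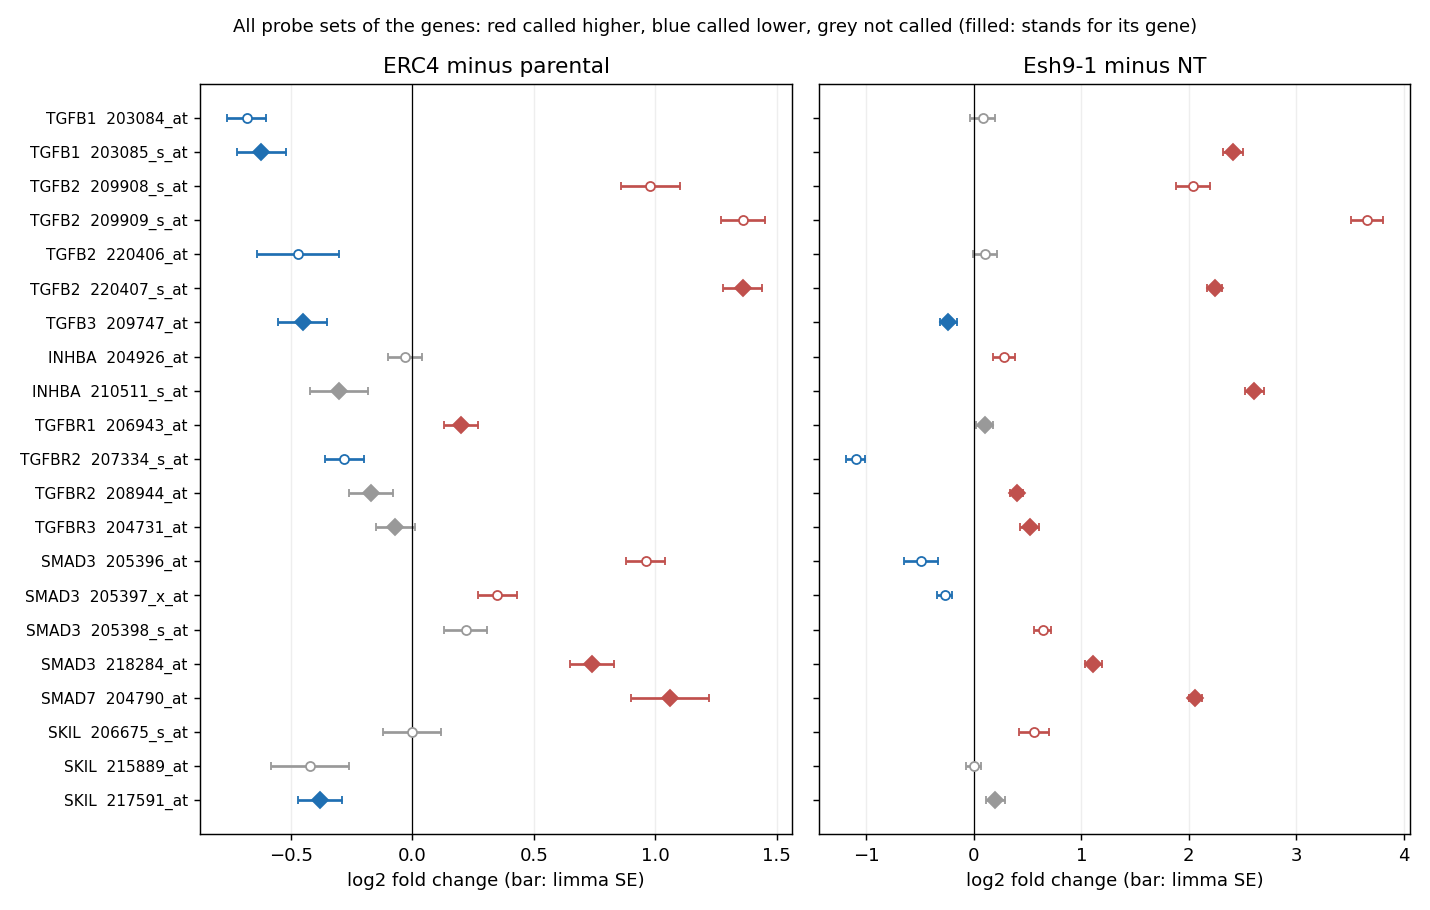
Log2 fold change of each of the 21 probe sets in ERC4 minus parental (left) and Esh9-1 minus NT (right), with limma's standard error as a bar; filled diamonds stand for their gene, and red, blue and grey mark calls higher, lower and no call. The panels have different horizontal scales, and in Esh9-1 the probe sets of TGFBR2 and SMAD3 lie on both sides of 0, and those of TGFB1 lie at 0.08 and 2.41.

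Set side by side, the comparisons, which share no arrays, had 5 of the 10 genes called in both. In the probe sets that stood for them, TGFB2, SMAD3 and SMAD7 were higher in both, 3 of 10 genes where 12.7% of all genes were. TGFB3 was called lower in both, as were 8.31% of all genes. Its Esh9-1 call was at levels under the array medians and was kept in 2 of the 6 fits without an array. TGFB1 was lower in ERC4 and higher in Esh9-1, a pattern of 3.06% of all genes. For SMAD3 the rise in both holds for 218284_at, since 2 of its 4 probe sets were called lower in Esh9-1. The difference between the effects was tested in a model of all 12 arrays, in which 48.9% of all genes were called. The change of TGFB1 in ERC4 was lower than that in Esh9-1 by 3.03 ± 0.14 on the log2 scale (limma adjusted p = 7.7e-10). For INHBA it was lower by 2.91 ± 0.16 (limma adjusted p = 3.4e-09). The dimmer probe set of TGFB1, 203084_at, gave a smaller difference of -0.77 ± 0.15 (limma adjusted p = 0.00083). That of INHBA, 204926_at, gave -0.31 ± 0.12 and was not called (limma adjusted p = 0.053). TGFB2 and SMAD7, though higher in both, rose by less in ERC4, with differences of -0.88 ± 0.11 and -1.0 ± 0.19 (limma adjusted p = 1.3e-05 and 0.00052). The probe sets of SMAD3 disagreed: 218284_at and 205398_s_at gave -0.37 ± 0.12 and -0.43 ± 0.12, while 205396_at and 205397_x_at gave 1.46 ± 0.19 and 0.62 ± 0.10 (limma adjusted p = 0.019, 0.0097, 2.6e-05 and 0.00017). The difference for 218284_at was no longer called once the parental and ERC4 values were stretched to the wider spread of the other set (-0.22, limma adjusted p = 0.18), or without ERC4 replicate 2 (-0.30, limma adjusted p = 0.053) or NT replicate 3 (-0.29, limma adjusted p = 0.057). TGFBR2 was split likewise, at -0.56 ± 0.11 in 208944_at and 0.82 ± 0.12 in 207334_s_at (limma adjusted p = 0.00057 and 8.2e-05). TGFBR3, dim in all groups, and SKIL, dim in parental and ERC4 cells, gave -0.59 ± 0.12 and -0.58 ± 0.14 (limma adjusted p = 0.001 and 0.0028). TGFB3 and TGFBR1 had no called difference (limma adjusted p = 0.24 and 0.46). The sets differ in spread, so that these differences compare effects that are not on a common scale.

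**Figure D3:**
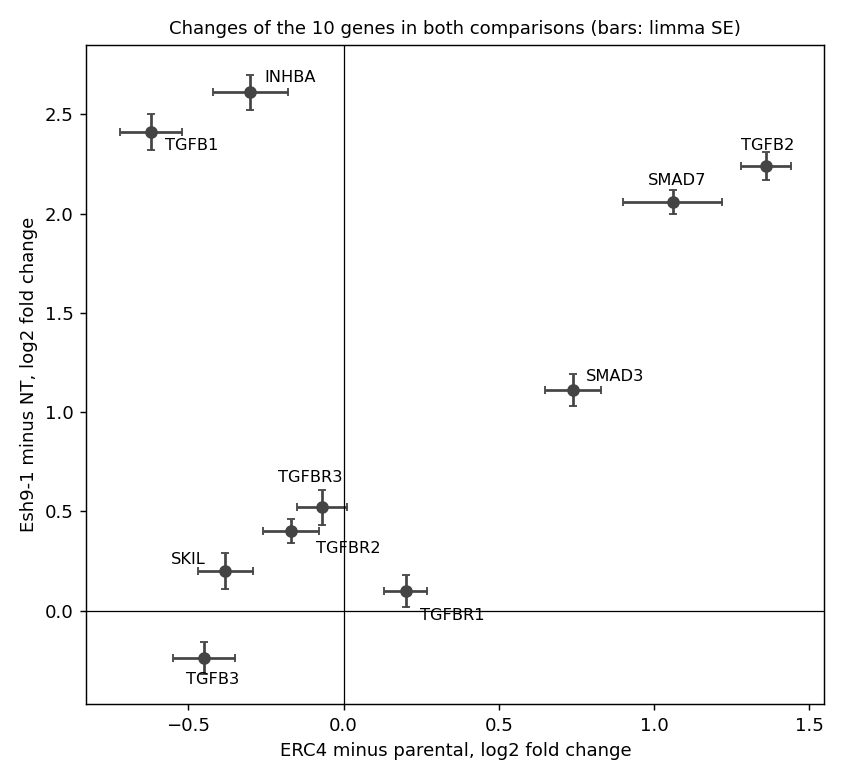
Log2 fold change of each of the 10 genes, in its brightest probe set, in ERC4 minus parental (horizontal axis) and in Esh9-1 minus NT (vertical axis), with limma's standard errors as bars. TGFB2, SMAD7 and SMAD3 lie in the upper right, while TGFB1 and INHBA lie at -0.62 and -0.30 on the horizontal axis and 2.41 and 2.61 on the vertical axis.

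The other genes of the pathway were read from 4 lists. Among other ligands, latency proteins and antagonists, 1 of 21 measured genes was called higher and 8 lower in ERC4 (median -0.20), against 26% and 24.8% of all genes, and 9 of the 21 lay under the array medians in both groups. The latency proteins LTBP1 and LTBP3, which hold TGF-beta in the matrix, were lower by 0.74 ± 0.20 and 0.67 ± 0.08 there (LTBP1 by 0.45 without parental replicate 1, which was the highest array), and the propeptide-cleaving protease FURIN by 0.43 ± 0.09, while the activin subunit gene INHBC was higher by 0.55 ± 0.13. After each array was centred on its median, the count of lower genes was 5 in place of 8. In Esh9-1, 6 were called higher and 3 lower (median -0.01), against 26.2% and 26.1% of all genes. The follistatin-like genes FSTL1 and FSTL3, the latter an activin antagonist, rose 4.79-fold and 4.18-fold, and ITGAV, an integrin subunit that takes part in releasing latent TGF-beta, rose 2.61-fold. INHBB and GDF11, both ligand genes, were called lower by 0.45 ± 0.09 and 0.34 ± 0.06.

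Among other receptors, 2 of 8 were called higher and 1 lower in ERC4, against 26% and 24.8% of all genes. Esh9-1 had 6 of these 8 higher and 1 lower, against 26.2% and 26.1% of all genes. Quantile normalization within the set gave 1 higher and 2 lower in ERC4. ENG, the co-receptor endoglin, fell by 1.07 ± 0.09 in ERC4 and rose 4.43-fold in Esh9-1, the directions seen for TGFB1. Its second probe set, 201808_s_at, gave -0.24 ± 0.10, which was not called, and 0.30 ± 0.08. The activin receptor genes ACVR1B and ACVR2A were higher by 0.50 ± 0.11 and 0.33 ± 0.08 in ERC4. In Esh9-1 the decoy receptor gene BAMBI rose 2.18-fold and ACVR2B 1.64-fold, and ACVR1B was called lower by 0.20 ± 0.07, a call kept in 2 of 6 fits without an array. ENG in NT lay 0.73 under the array medians.

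Among other SMADs, cofactors and feedback genes, 9 of 19 were called higher and 4 lower in ERC4 (median 0.13, or 0 after quantile normalization), and 8 higher and 2 lower in Esh9-1 (median 0.05). The shares of all genes called were 26% higher and 24.8% lower in ERC4, and 26.2% and 26.1% in Esh9-1. SMAD4, the common partner of the receptor-activated SMADs, rose 2.09-fold in ERC4, the SMAD phosphatase gene PPM1A 1.69-fold and the kinase gene HIPK2 1.54-fold, while the other HIPK2 probe set, 219028_at, gave -0.07 ± 0.10 and was not called. The ubiquitin ligase gene SMURF2 fell by 0.84 ± 0.08 and the repressor gene SKI by 0.36 ± 0.11, whose call was kept in 2 of 6 fits without an array. In Esh9-1, PMEPA1, an induced inhibitor of the pathway, rose 3.32-fold, the repressor gene TGIF2 1.83-fold and ZFYVE16 1.97-fold. SMURF1 was called lower in all 3 of its probe sets, at -0.39 to -1.50, and TRIM33 at -0.18 ± 0.06, a call kept in 1 of 6 fits without an array.

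Genes known as TGF-beta targets were mostly higher in Esh9-1 and mixed in ERC4. This list, like the others, was chosen with earlier results of these data known, so its counts are a description and not a test. In Esh9-1, 20 of 28 were called higher, 13 of them by at least 2-fold, and 4 lower (median 0.87), where 26.2% of all genes were higher, 4.89% higher by at least 2-fold and 26.1% lower. The actin-binding gene TAGLN rose 50.9-fold, THBS1, whose product can activate latent TGF-beta, 31.1-fold, and the matricellular gene CCN2 20.5-fold. The NT levels of these genes lay 1.66, 0.70 and 1.96 under the array medians, so that the sizes of these folds rest on dim signals. IGFBP3, BHLHE40 and HMGA2, also listed as induced targets, fell by 2.18 ± 0.07, 1.07 ± 0.08 and 0.30 ± 0.06. In ERC4, 7 were called higher and 11 lower (median 0.01), against 26% and 24.8% of all genes, or 10 and 9 after median centring and 10 and 12 after quantile normalization. THBS1 and the tropomyosin gene TPM1 rose 4.92-fold and 4.29-fold there and KLF10, an early target, 1.85-fold, while HMGA2, VCAN and CDKN1A fell by 0.95 ± 0.10, 0.95 ± 0.10 and 0.91 ± 0.11.

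**Figure D4:**
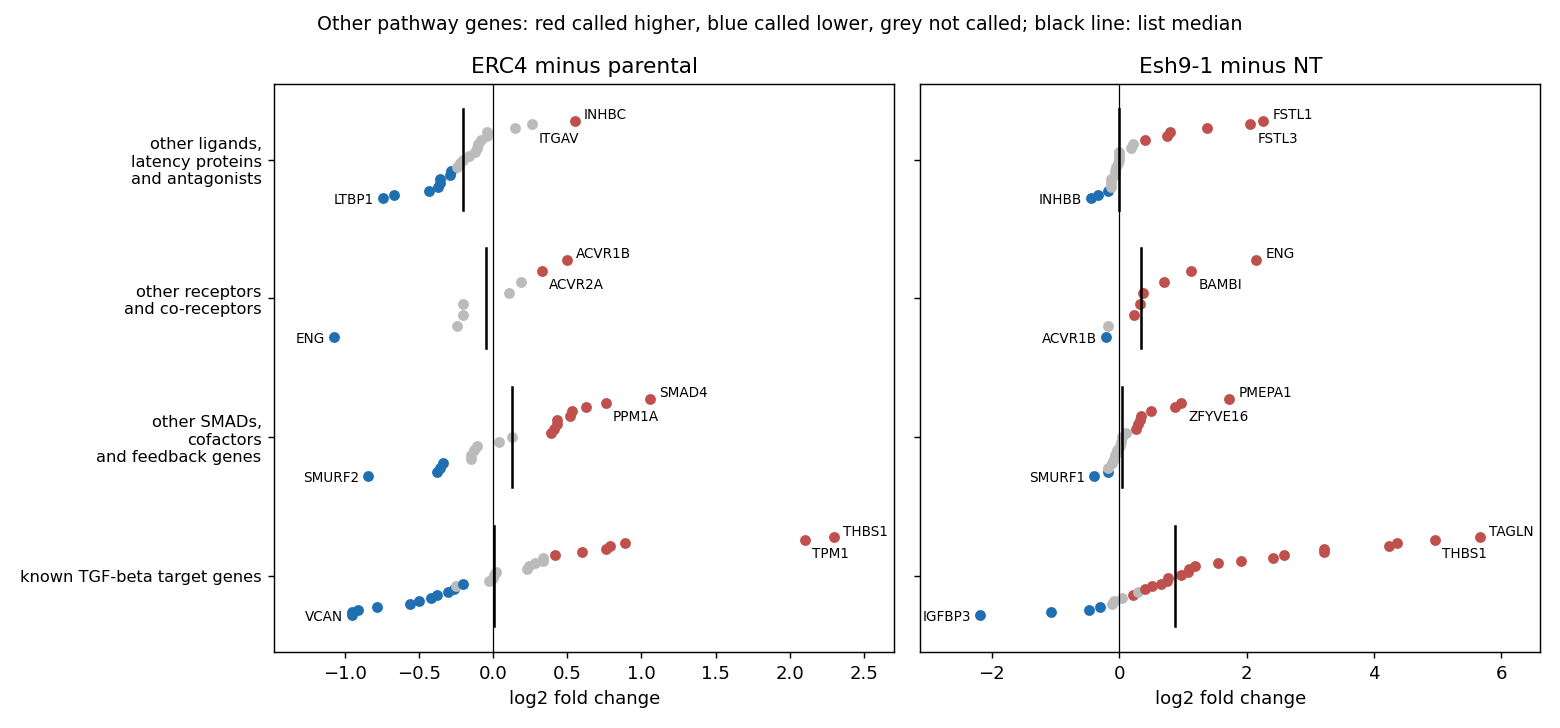
Log2 fold change of the other pathway genes (points) in ERC4 minus parental (left) and Esh9-1 minus NT (right), by list, with calls higher in red, lower in blue and no call in grey, and the list median as a black line. The targets have a median of 0.01 in ERC4 and 0.87 in Esh9-1.

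Markers of cells that also make these genes were measured beside them. Of 8 fibroblast markers, 1 was called higher in Esh9-1 (LUM, at 6.78 against 4.22) and 0 lower, and 7 of the 8 lay under the array medians in both groups. The summed intensity of the list was 946 to 1000 in Esh9-1 and 907 to 1010 in NT. Of 6 endothelial markers, 1 was called lower and 0 higher in Esh9-1, all 6 lay under the array medians in both groups, and the sums were 296 to 311 against 321 to 328. Of 7 leukocyte markers, 3 were called higher and 1 lower in Esh9-1, with sums of 1080 to 1130 against 759 to 767. LAPTM5 made the largest of these changes (8.70 against 6.44). FCER1G (7.03 against 6.45) and CD14 (6.17 against 5.87) were also called higher, and CD79A lower (6.76 against 7.39). CD53, at 8.06 and 7.94, was not called and lay above the array medians in both groups. The pan-leukocyte gene PTPRC, at 4.67 and 4.85, and the T cell gene CD3D, at 6.59 and 6.54, lay under the array medians. These lists' part in the results was not tested. In ERC4, 1 fibroblast marker was higher (LUM, at 3.95 against 3.42) and 5 lower, with sums of 330 to 351 against 409 to 419. There 0 of 6 endothelial markers were higher and 1 lower (sums 173 to 174 against 186 to 207), and 0 of 7 leukocyte markers were higher and 4 lower (329 to 376 against 404 to 428). No marker was at 0, since the arrays give every probe set a signal.

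The genes whose pattern over the 12 arrays was most like that of TGFB2, the gene with the largest change in ERC4, were found after centring each gene within its set of 6 arrays. They were TPM1 (Pearson's r = 0.9975), SEMA3C (0.997), F2R (0.996), SCML1 (0.9957) and IARS1 (0.9943). For INHBA, with the largest change in Esh9-1, they were EIF3E (0.991), LGALS1 (0.9899), RIPOR1 (0.9898), RPL14 (0.9895) and POPDC3 (0.9891). With 4 groups, such a correlation describes little more than the ratio of a gene's changes in the comparisons. TPM1 rose by 2.10 in ERC4 and 3.21 in Esh9-1, and LGALS1 gave -0.68 and 3.67.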

How the data were processed

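Total RNA from 12 samples was hybridised to arrays of 22277 probe sets. The authors deposited RMA intensities, on a linear scale (RMA per the submitters' processing notes, its version and batches not given in the sources used here). After 62 array controls were left out, 22215 probe sets were tested, of which 19064 carried 1 gene symbol in the platform annotation. Values were taken to log2(value + 1), which understates folds of dim genes. Each comparison was fitted within its own set of 6 arrays by lmFit and eBayes of limma 3.58.1 under R 4.3.3 (two-sided, Benjamini-Hochberg over all probe sets, called under 0.05), and the procedure was tested on simulated data. Fold changes are on this log2 scale. With 3 arrays a group, an exact permutation test cannot give a p under 0.1. Their number limits the precision.

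The genes and lists were chosen with earlier results of these data known. Named from the 4 lists were, per comparison, the 3 highest and 3 lowest called genes whose higher group reached the array median; single further probe sets and the marker genes given by name were picked after their values were seen. CAGAC, GTCTAGAC and TGACTCA were searched on both strands. Alternatives covered the replicate block, 1 model of 12 arrays, the transform, scaling, filters, eBayes settings, array weights, probe set rules, the threshold, and leaving out each array. Figures were drawn with matplotlib 3.10.9.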

Additional observations from a re-analysis of the deposited data

How the results depend on the processing

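Of 333 values of single genes under alternatives, 311 kept direction and side of the threshold. TGFBR3 in ERC4 changed sign after quantile normalization within each set (0.036), and TGFBR2 in Esh9-1 as the mean of its probe sets (-0.35). The other changes touched TGFBR1, INHBA and TGFBR2 in ERC4 and TGFB3 and SKIL in Esh9-1. With 1 probe set per gene the counts of calls were 6217 in ERC4 and 6410 in Esh9-1, and after averaging each gene's probe sets 6457 and 6543, against 10774 and 11184, since fewer features were tested. The share of higher calls in ERC4 was 48.7%, but 58.9% after median centring and 60.8% without dim probe sets. Without each array in turn, counts were 8617 to 10325 in ERC4, 10011 to 10722 in Esh9-1 and 9699 to 10629 for the difference of effects, with 6 to 7 and 7 to 8 of the 10 genes called. Deviations of same-numbered arrays from their group means correlated at r = 0.012 to 0.065 in ERC4 and -0.137 to -0.03 in Esh9-1. With 3 arrays a group, these values cannot tell whether the numbers pair the arrays. The replicate block gave 10639 and 10454 calls, with 6 and 8 of the 10 genes, and 10080 for the difference of effects. Under it TGFBR1 in ERC4 lost its call. Groups of 3 arrays are too small to single out an array, and dim signal limits INHBA, TGFBR1, TGFBR3 and SKIL.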

Other observations

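All 5 probe sets of THBS1 were called higher in both comparisons, at 0.54 to 3.17 on the log2 scale in ERC4 and 0.81 to 6.29 in Esh9-1, so that the size of its change varied more between probe sets than between arrays. All 4 probe sets of TPM1 were likewise called higher in both, at 0.78 to 2.97 in ERC4 and 1.82 to 3.92 in Esh9-1. VCAN, which encodes the matrix proteoglycan versican, had all 5 probe sets called lower in ERC4 (-0.26 to -1.31) and 4 of 5 called higher in Esh9-1 (0.58 to 1.95). The fibronectin gene FN1 gave 1.19 to 1.36 in its 4 bright probe sets in Esh9-1, while 214701_s_at was called lower at -0.93 ± 0.17 (limma adjusted p = 0.0016). Probe sets of SMAD2 were called higher in ERC4 in 3 of 3 cases, at 0.31 to 1.03. These probe sets were picked after their values were seen.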
